A study of Mus musculus with 3 samples.

Results

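Transcription after 48 h of doxycycline was compared, gene by gene, with transcription in uninduced cells of the mouse pancreatic cancer line NB490. Of 22658 gene models per library, 7940 were compared: those with a mean of at least 0.5 RPKM (reads scaled to the length of the gene model and to the library total) over the 2 libraries and a deposited length of at least 300 bp. Cells of every condition carried a puromycin-selected short hairpin RNA (shRNA) against PDX1 that doxycycline switches on, and were kept in medium with 10% fetal serum. The uninduced cells had 0 h of doxycycline, the induced cells 48 h, and a further library, whose levels are given beside a few genes, came from cells left to grow under the drug for over 3 weeks, called grown out below. The labels do not say whether the line is 1 clone or a pool. Cells given doxycycline with another hairpin or with none were not analysed here, so effects of the drug and of the hairpin cannot be told apart.

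The RNA was labelled with 2 mM bromouridine for 30 min and captured with an antibody, a method called Bru-seq, so the reads report RNA made during the labelling window, introns included, rather than RNA stored in the cell. PDX1 is a homeodomain transcription factor needed for pancreas formation. In the adult organ it is best known in insulin-producing cells, and many pancreatic cancers express it. Several of the genes below belong to programs that answer outside signals within minutes to hours. Immediate early genes such as Egr1 and Jun are switched on by growth factors through ERK kinases and serum response factor. Chemokine genes are switched on by NF-kB, and cholesterol synthesis genes by SREBP2 together with NF-Y when sterols run short.

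There was 1 library a side, so no difference has a replicate check and no p-value is given. Ranges in parentheses are 95% intervals from exact formulas for read counts, and cover counting error only. Many deposited counts are estimates that are not whole numbers, and error in those estimates is left out. The ranges would also be too narrow where 1 molecule gave several reads, since no molecular identifiers were counted. The read totals behind the RPKM values were 51006774 for the uninduced and 48418864 for the 48 h library, and a compared gene had a median of 2033 and 1892 reads. A gene is called past 2-fold or past 1.5-fold where its log2 ratio of RPKM, with 0.05 added to both values, reached that size and its interval excluded no change. RPKM is relative to the library total, so a change shared by all genes would not be seen, and in a culture fewer cells of a type and less RNA per cell cannot be told apart.

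Pdx1 itself had 1.59 RPKM in uninduced cells (406 reads) and 1.05 RPKM at 48 h (256 reads). The 48 h level was lower by 1.51-fold (1.29 to 1.77), and its log2 ratio of -0.57 did not reach the 1.5-fold line. An shRNA acts on finished mRNA, so this nascent level does not measure the knockdown. Of 10 duct and epithelial markers, 8 were compared, with 14.2 RPKM of Krt18, 13.6 of Krt19 and 4.81 of Cdh1 in uninduced cells. The duct markers Sox9 and Epcam stood at 0.198 and 0.0984 RPKM, under the minimum. Of 25 mesenchymal genes listed, 14 were also compared. Of 12 acinar markers 8 were at 0 in uninduced cells and 9 at 48 h, and their summed level was 0.16 and 0.144 RPKM. Of 12 endocrine markers, Ins1, Ins2 and Gcg included, 7 and 9 were at 0.

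The difference between the 2 libraries lay mostly on 1 side. Past 2-fold, 57 genes were lower at 48 h (0.718% of those compared) and 3 were higher (0.0378%), so 95% of these 60 genes (0.756%) were lower. Past 1.5-fold, 259 were lower (3.26%) and 33 higher (0.416%), or 292 in all (3.68%). With 0.5 RPKM added in place of 0.05 the counts past 2-fold were 24 lower and 0 higher, and with a mean of at least 2 RPKM they were 23 and 0. The bulk of the genes did not lean that way. The median log2 ratio was 0.00, with 4027 ratios above 0 and 3913 below it. Beyond counting error alone, 29.9% of genes were lower and 30.2% higher. The asymmetry was in the tails, where the 1st percentile of the log2 ratio was -0.87 and the 99th 0.47. Among the 57 lower genes, 50 had a gene name and 7 a clone name, and 51 had at least 100 reads in uninduced cells.

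**Figure D1:**
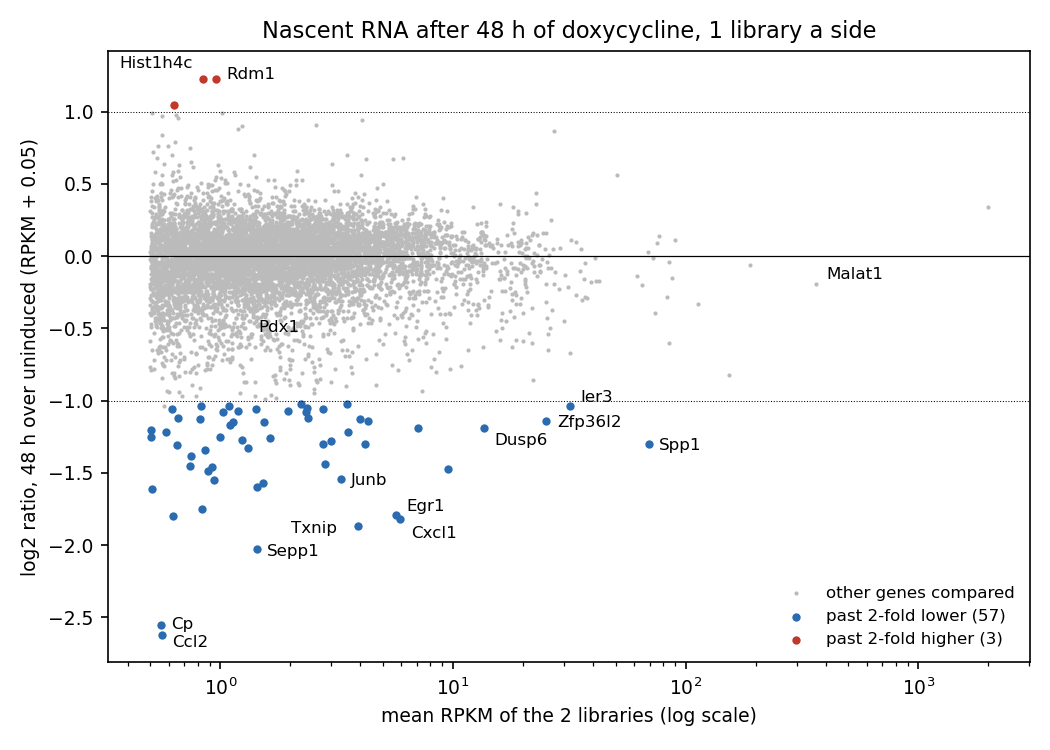
Each point is 1 of the 7940 genes compared, with its mean RPKM over the 2 libraries on a log axis and its log2 ratio of 48 h over uninduced RPKM, 0.05 added to both. The 57 genes past 2-fold lower (blue) reach -2.62 at Ccl2, and the 3 past 2-fold higher (red) end at 1.23.

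The firmest difference, by the interval bound nearest to no change, was that of Cp, which encodes ceruloplasmin, a copper-carrying ferroxidase of plasma. It had 0.982 RPKM (0.944 to 1.02) in uninduced cells and 0.127 RPKM (0.113 to 0.142) at 48 h, a level 7.75-fold lower (6.89 to 8.75). In the grown-out library it stood at 0.133 RPKM, so the uninduced library was the high one. Ccl2, the monocyte chemokine, followed the same pattern on few reads, with 96 in uninduced cells and 11 at 48 h. Its level was 8.31-fold lower (4.44 to 17.2), from 1.00 to 0.121 RPKM, and 0.115 RPKM in the grown-out library. Sepp1, which encodes the selenium carrier selenoprotein P, had 2.33 RPKM uninduced, 0.532 at 48 h and 0.574 grown out. Txnip, an arrestin-like inhibitor of glucose uptake whose transcription follows glucose supply, had 6.14, 1.64 and 1.51 RPKM in the same order.

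Genes related to Sepp1 and Txnip had smaller ratios. Of 12 selenoprotein genes and factors for their synthesis, Sepp1 was the 1 past 1.5-fold lower, and the list had a median log2 ratio of -0.10. Arrdc3, another alpha-arrestin gene, had a log2 ratio of -0.39. Spp1, which encodes the secreted glycoprotein osteopontin, was the most transcribed gene past 2-fold, at 98.6 RPKM (97.5 to 99.7) uninduced and 40.0 (39.3 to 40.7) at 48 h. Cyp1b1, an aryl hydrocarbon receptor target encoding a cytochrome P450, had 1.90 and 0.723 RPKM. Ranbp3l, a relative of a nuclear export cofactor, spans 78964 bp and was the longest gene past 2-fold, at 1.14 and 0.493 RPKM.

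Rbp4, which encodes the plasma retinol carrier, was 3.10-fold lower (2.22 to 4.40), from 2.30 to 0.742 RPKM. Its value rests on 1297 bp of its 8702 bp span. The model lies inside a larger one on the same strand spanning over 3 Mb, and the length deposited is below its span. The same holds for Pdlim1, at 1505 of 49378 bp. The other genes past 2-fold lower with a gene name, beyond those described here, were Zfp703, at 2.34 and 0.946 RPKM, and Fgfbp1, Ly6e, F3, Fzd5, Frat2, Lgals, Arl14, Maf, Fhl3, Angptl4 and Atp1b1, with log2 ratios of -1.34 to -1.04 together. Of these, Frat2 lies inside a model over 3 Mb. Lgals rests on 598 of 6860 bp, in a model overlapping another on the same strand. The 7 clone-named models had log2 ratios of -1.75 (8430408G22Rik) to -1.07 (A930038C07Rik).

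**Figure D2:**
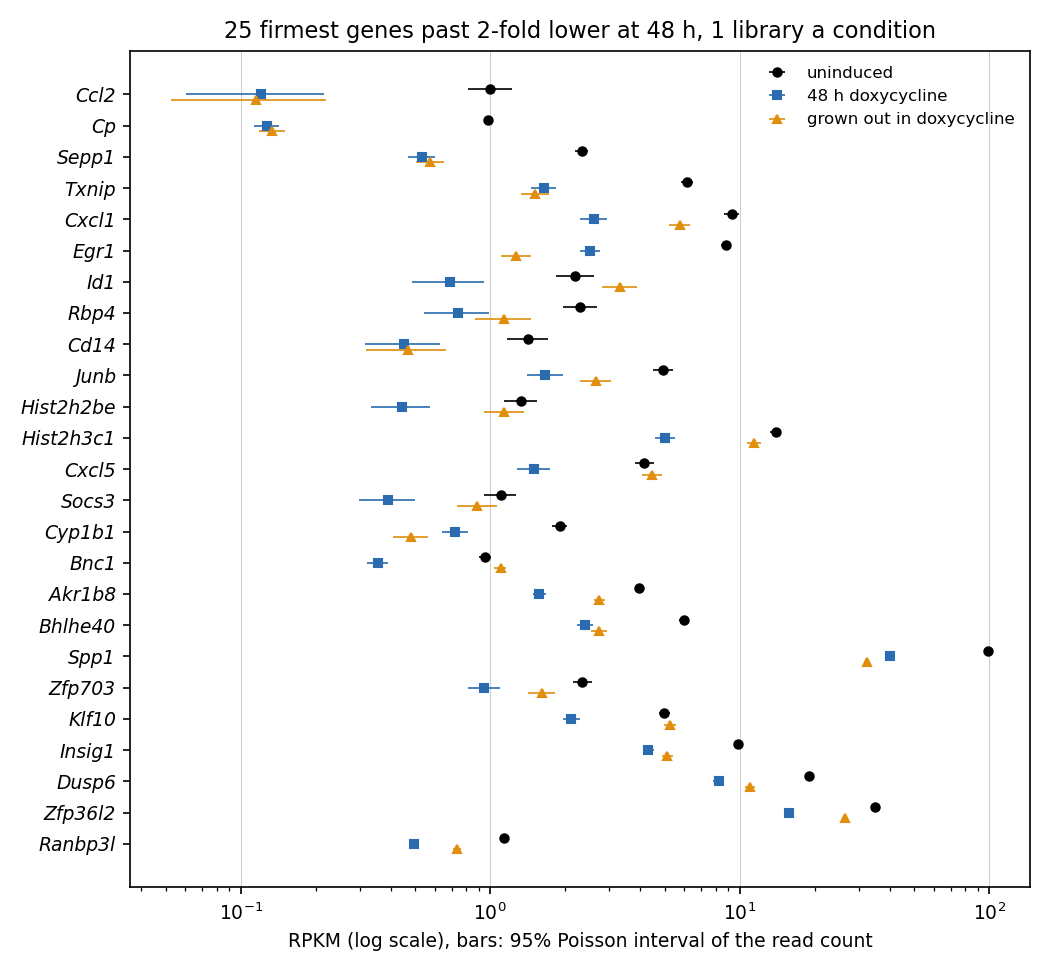
RPKM on a log axis in the uninduced (black), 48 h (blue) and grown-out (orange) libraries, 1 library each, for the 25 genes past 2-fold lower at 48 h whose interval bound lies farthest from no change. Bars are 95% Poisson intervals of the read count. Cp and Ccl2 stand lowest at 48 h, at 0.127 and 0.121 RPKM, and Cxcl5 is at 1.5 RPKM at 48 h against 4.15 uninduced and 4.46 grown out.

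Sequence just upstream of the start sites is shown for 6 lower genes. Letters read by known regulators of the programs described next are marked. Spp1 is in none of the sterol, NF-kB or immediate early lists. The promoter windows are from RefSeq (build GRCm38.p6), were matched by gene symbol, and cover 250 bases before to 50 after each start. They covered 6402 of the 7940 genes, and 37 of the 57 past 2-fold lower. Each line below holds the 200 bases before the start, 5′ to 3′ on the gene's strand, with matches in capitals on either strand. The capitals mark the NF-kB site, GGG and TTTCC with any 2 bases between, in Cxcl1 (chr5:90891045-90891244, plus strand) and Nfkbia (chr12:55492648-55492847, minus strand). They mark CCAAT, read by NF-Y and written ATTGG on the other strand, in the sterol genes Idi1 (chr13:8885406-8885605, plus strand) and Lss (chr10:76531405-76531604, plus strand). In Zfp36 (chr7:28379229-28379428, minus strand) they mark a CArG box, read by serum response factor. In Spp1 (chr5:104434911-104435110, plus strand; the more upstream of 2 windows) they mark CCAAT and TCACNCCAC, the core of a sterol regulatory element.
Cxcl1: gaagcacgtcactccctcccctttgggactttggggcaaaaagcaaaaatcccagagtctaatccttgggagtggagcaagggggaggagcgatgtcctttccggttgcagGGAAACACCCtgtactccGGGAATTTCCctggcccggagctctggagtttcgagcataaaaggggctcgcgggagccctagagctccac
Nfkbia: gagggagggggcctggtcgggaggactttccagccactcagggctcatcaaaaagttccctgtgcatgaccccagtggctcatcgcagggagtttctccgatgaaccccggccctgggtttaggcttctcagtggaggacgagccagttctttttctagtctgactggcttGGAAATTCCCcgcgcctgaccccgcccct
Idi1: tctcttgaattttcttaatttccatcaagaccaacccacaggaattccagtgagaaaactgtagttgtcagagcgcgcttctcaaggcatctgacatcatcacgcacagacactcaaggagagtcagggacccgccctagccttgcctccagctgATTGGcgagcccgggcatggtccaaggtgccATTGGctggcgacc
Lss: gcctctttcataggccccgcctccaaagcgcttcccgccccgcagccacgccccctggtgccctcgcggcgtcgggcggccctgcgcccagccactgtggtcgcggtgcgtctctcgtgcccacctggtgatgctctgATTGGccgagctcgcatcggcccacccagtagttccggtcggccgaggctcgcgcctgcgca
Zfp36: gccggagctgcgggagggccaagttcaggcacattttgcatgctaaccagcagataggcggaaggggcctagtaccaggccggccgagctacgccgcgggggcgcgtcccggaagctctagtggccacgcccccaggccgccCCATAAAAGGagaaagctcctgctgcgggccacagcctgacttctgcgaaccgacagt
Spp1: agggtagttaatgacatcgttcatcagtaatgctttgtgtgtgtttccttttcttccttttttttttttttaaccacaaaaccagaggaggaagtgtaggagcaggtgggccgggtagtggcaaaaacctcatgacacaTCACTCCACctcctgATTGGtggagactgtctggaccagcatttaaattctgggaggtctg

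CCAAT was in 84.6% of the 13 windows of 12 cholesterol genes and in 56.0% of the 25 windows of 20 immediate early genes. It was in 57.1% of the 42 windows of genes past 2-fold lower, but in 40.7% of the 231 past 1.5-fold lower, 51.7% of the 29 past 1.5-fold higher and 38.4% of the 8047 of all genes compared. The sterol element core was in 0 of the 13 cholesterol windows and 0 of the 19 windows of fatty acid genes. It was in 2.38% of windows past 2-fold lower, 1.3% past 1.5-fold lower and 1.14% of all compared. The NF-kB letters were in 26.7% of 15 windows of the NF-kB list. They were in 2.38% of windows past 2-fold lower, 6.06% past 1.5-fold lower and 1.60% of all. CTAATG, the A-box core that PDX1 binds, was in 2.38%, 6.06% and 4.39% in the same order, and a CArG box in 2.38%, 2.60% and 1.22%. GGCGCC, a BMP Smad site, was in 9.52%, 17.7% and 22.9%, and CACGTG, the E-box, in 2.38%, 6.49% and 10.5%. Also in that order, TGANTCA, an AP-1 site, was in 7.14%, 8.23% and 4.54%, and TGACGTCA, a CRE site, in 2.38%, 3.46% and 3.39%. GCGTGGGCG, an EGR site, was in 0%, 1.73% and 1.21%, and GGAATG, a TEAD site, in 9.52%, 9.96% and 11.3%. By list, CTAATG was in 3 of the 13 cholesterol windows, 1 of the 19 fatty acid windows and 0 of the 25 immediate early windows. In the 42 windows past 2-fold lower, 2.38% is 1 window. Of the 25 immediate early windows, 1 (4%) had a CArG box, that of Zfp36. Both strands were searched, matches of different motifs do not overlap in the stretches shown, and a match is a run of letters, not a bound site.

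Immediate early transcription factors and regulators were the list with most genes past 2-fold. Of 26 compared, 14 were past 1.5-fold lower, 9 of them past 2-fold, and 0 were higher. Their median log2 ratio was -0.68, against 0.00 over all genes. Of all genes compared, 3.26% were past 1.5-fold lower, the share to set beside the counts of this and the later lists. That share differed with model length, from 8.99% under 3 kb to 1.10% over 100 kb, and was not matched to the lists by length. Egr1, a zinc finger activator, had 8.81 RPKM uninduced and 2.52 at 48 h, 3.50-fold lower (3.16 to 3.89), and 1.27 RPKM grown out. Junb, an AP-1 subunit, had 4.93, 1.66 and 2.65 RPKM in the 3 libraries. Jun, the founding AP-1 subunit, was 2.49-fold lower (1.94 to 3.23).

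The group also held regulators that shut such signals off. Zfp36l2 and Zfp36 encode proteins that bring short-lived mRNAs to decay. Zfp36l2 had 34.7 RPKM and 15.7 RPKM at 48 h, and Zfp36 had 3.00 and 1.45. Klf10, a TGF-beta-induced repressor, had 4.99 and 2.11 RPKM, but 5.26 in the grown-out library. Atf3, a stress-induced bZIP repressor, was 2.32-fold lower, Btg2, an antiproliferative gene, 2.13-fold and Ier3 2.07-fold. Myc, also a member, had 7.54 RPKM uninduced and 6.25 at 48 h, a log2 ratio of -0.27.

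Feedback inhibitors of ERK signalling were lower in part. Of 17 inhibitors and Etv factors, 5 were past 1.5-fold lower and 0 higher, with a median of -0.33. Dusp6, the ERK phosphatase, had 18.9 RPKM uninduced and 8.23 at 48 h, 2.29-fold lower. Spry1, a Ras-pathway inhibitor, had 1.63 and 0.754 RPKM, and Phlda1 4.73 and 2.31. Errfi1, which encodes an inhibitor of the EGF receptor, had 28.5 and 15.7 RPKM. The ERK-driven transcription factor genes Etv4 and Etv5 were not lower, with log2 ratios of 0.02 and 0.21. Spry4 had a log2 ratio of -0.49. Of the EGF receptor ligands, Areg had 4.54 RPKM and 2.41 at 48 h, and its neighbour Ereg, 45966 bp away, 2.64 and 1.73. The receptor gene Egfr had a log2 ratio of -0.15.

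Chemokine and NF-kB genes were lower at several steps of the pathway. Of 6 chemokine and cytokine genes compared, 4 were past 1.5-fold lower and 3 past 2-fold, with a median of -1.02. Cxcl1, a neutrophil attractant, had 9.28 RPKM uninduced and 2.60 at 48 h. Cxcl5, of the same family, was 2.77-fold lower (2.32 to 3.32). The stromal chemokine gene Cxcl12 and the macrophage growth factor gene Csf1 had log2 ratios of -0.38 and -0.10. Of the 29 genes listed, 23 were not compared, so this group is small.

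Within the NF-kB list, 6 of 19 were past 1.5-fold lower, 0 were higher, and the median was -0.37. Cd14, the lipopolysaccharide co-receptor, had 1.42 RPKM uninduced and 0.451 at 48 h, on 115 and 34.7 reads. Cd14 is also a marker of monocytes. Another such marker, Cd68, had 0.994 and 0.916 RPKM, while Ptprc had 1 and 2 reads, and Csf1r and Lyz2 had 0. Among subunits, Relb was 1.74-fold lower (1.58 to 1.92) and the co-regulator gene Bcl3 2.03-fold (1.76 to 2.35), while Rela and Nfkb1 had log2 ratios of -0.48 and 0.09. Nfkbia, the inhibitor whose gene NF-kB itself switches on, had 1.38 and 0.867 RPKM. Ptgs2, which encodes cyclooxygenase-2, was highly transcribed at 39.3 RPKM and had 24.7 at 48 h. Socs3, the JAK-STAT inhibitor, is in the interferon response list and not in this one, and had 1.10 and 0.390 RPKM. Of 12 genes of that list compared, 3 were past 1.5-fold lower and 0 higher, with a median of -0.13.

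Cholesterol synthesis genes were lower along nearly the whole pathway. Of 19 compared, 11 were past 1.5-fold lower and 0 higher, the ratios ran from -1.19 to -0.07, and the median was -0.63. Insig1, the sterol-sensing brake on SREBP, was the 1 past 2-fold, with 9.86 RPKM uninduced and 4.30 at 48 h. Idi1, which makes the isoprenoid building block, had 6.06 and 3.25 RPKM. In the later steps Sqle had 3.18 and 1.85 RPKM, Lss 0.734 and 0.387, and Cyp51 4.72 and 2.67. The driver gene Srebf2 had a log2 ratio of -0.37. Ebp, at -0.07, and Nsdhl, at -0.62, both lie inside a model spanning over 3 Mb.

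Fatty acid synthesis genes, which SREBP1 controls, had 3 of 18 past 1.5-fold lower, 0 higher and a median of -0.30. Scd1, the stearoyl desaturase gene, had 8.08 RPKM uninduced and 4.87 at 48 h. Mid1ip1, an activator of acetyl-CoA carboxylase, had 3.31 and 1.72. Both lie inside a model spanning over 3 Mb. The main enzymes Fasn and Acaca had log2 ratios of -0.26 and -0.02. Gpam, the first step of glycerolipid synthesis, had 0.48.

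**Figure D3:**
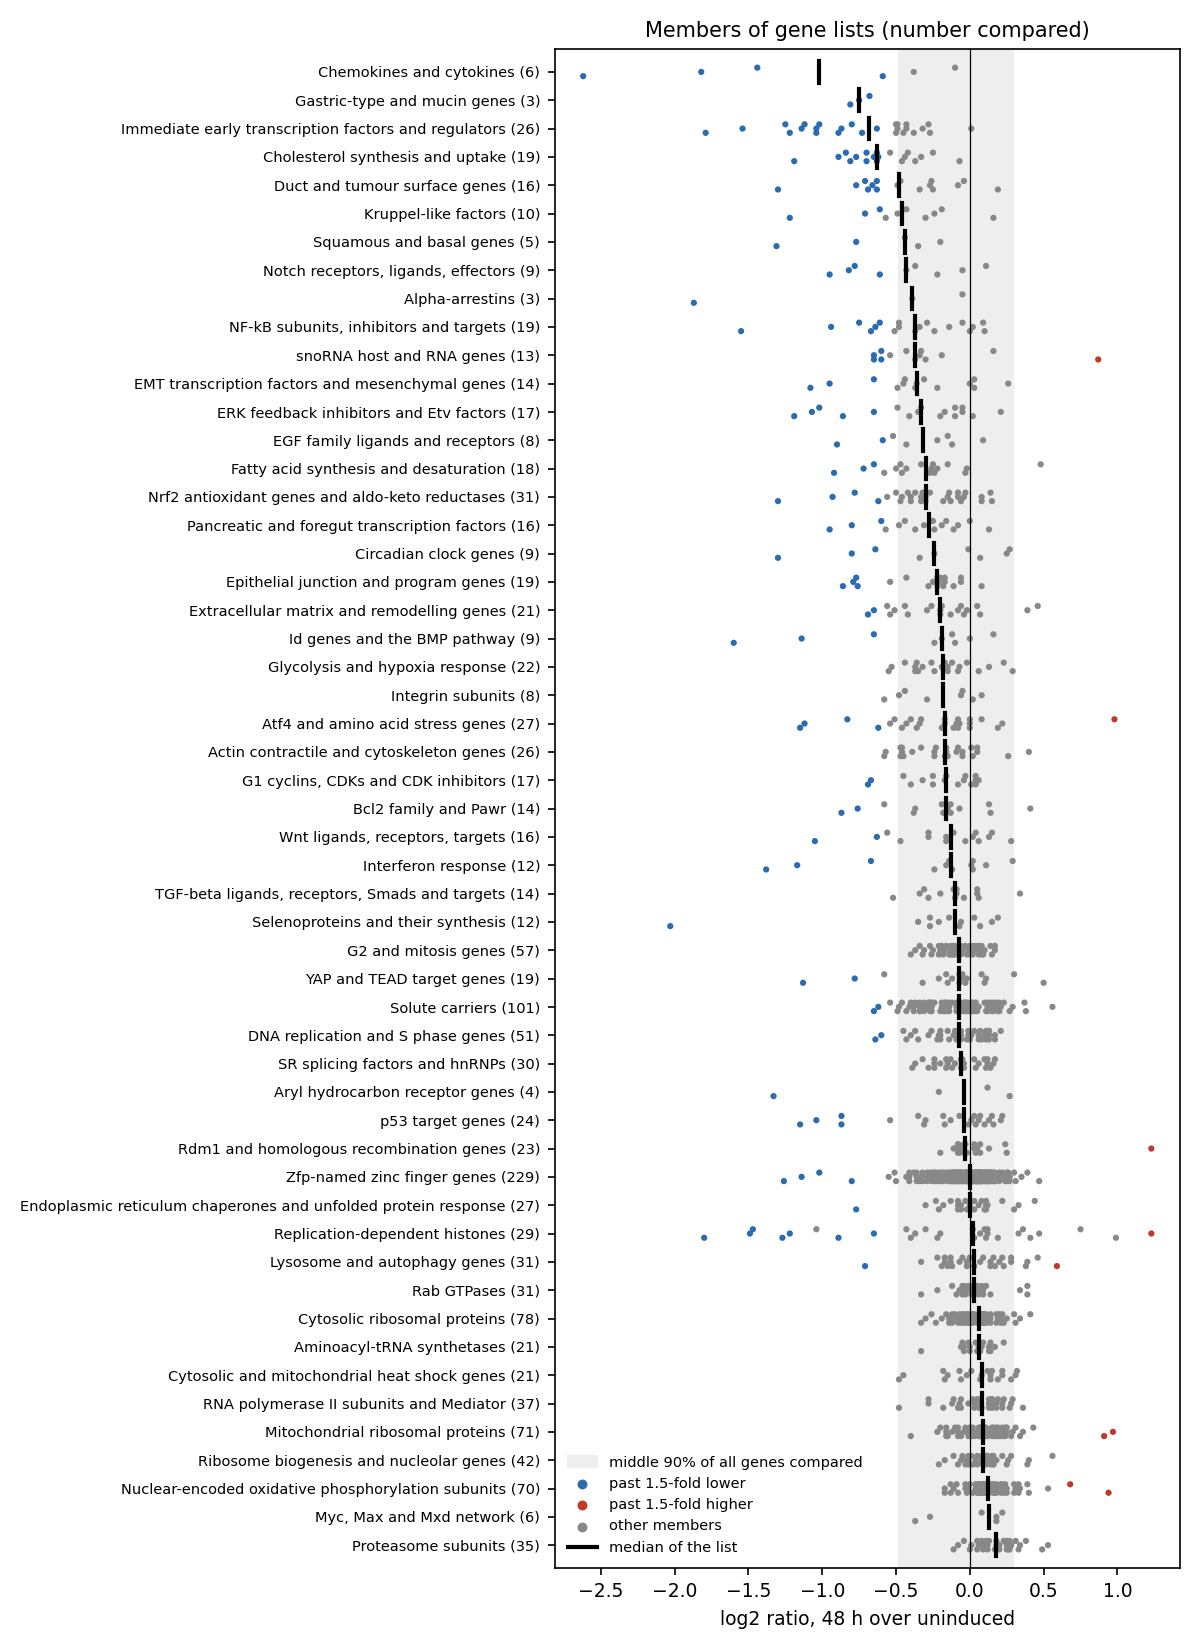
Log2 ratio of 48 h over uninduced RPKM for each compared member of the gene lists (grey, or blue and red where past 1.5-fold lower and higher), with the median of each list as a black bar and the middle 90% of all genes compared (-0.48 to 0.29) as a grey band. Chemokines (median -1.02), gastric genes (-0.75), immediate early genes (-0.68) and cholesterol genes (-0.63) lie lowest, and proteasome subunits (0.18) highest.

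Identity genes of pancreas and duct differed unevenly. Of 16 pancreatic and foregut transcription factors, 3 were past 1.5-fold lower and 0 higher, with a median of -0.28. These were Hes1, the Notch effector, at 3.34 RPKM uninduced and 1.71 at 48 h, Onecut2, at 3.23 and 1.84, and Foxa2, at 1.36 and 0.885. Gata4 and Gata6, partners of PDX1 in early pancreas, had log2 ratios of 0.00 and -0.08. Of 9 Notch genes, 4 were lower, the ligand gene Jag1 and the feedback inhibitor gene Nrarp among them, at 1.8-fold (1.70 to 1.89) and 1.78-fold (1.35 to 2.36).

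Of 19 epithelial genes, 4 were past 1.5-fold lower, and adhesion and keratin genes differed from each other. Cdh1, which encodes E-cadherin, had log2 ratio -0.06, Krt18 0.08 and Krt8 -0.17. Krt19 had 13.6 RPKM uninduced and 8.01 at 48 h, and Jup, which encodes plakoglobin, 1.10 and 0.615, both inside a model over 3 Mb. Muc1, a transmembrane mucin gene outside such a model, had 2.55 and 1.38 RPKM. Of 16 surface genes of duct and tumour cells, 7 were past 1.5-fold lower, with a median of -0.48. Besides Spp1, Anxa2 had 10.2 and 5.94 RPKM, the hyaluronan receptor gene Cd44 4.44 and 2.73, and the urokinase receptor gene Plaur 10.3 and 6.27. The 3 gastric-type genes compared, Anxa10, Vsig1 and Syt8, were each lower, with log2 ratios of -0.81, -0.75 and -0.68. Another 19 of the 22 listed were not among the genes compared.

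Mesenchymal genes did not differ in the opposite direction. Of 14 compared, 3 were past 1.5-fold lower and 0 higher, with a median of -0.36. Twist2, a mesenchymal helix-loop-helix factor gene, had 1.41 and 0.642 RPKM, Pdgfb 1.61 and 0.808, and Fn1, which encodes fibronectin, 2.51 and 1.57. Vim had a log2 ratio of -0.45 and Zeb1 of 0.03. Bnc1, which encodes the basal-epithelial factor basonuclin 1, had 0.953 RPKM uninduced, 0.354 at 48 h and 1.10 grown out.

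Id1 and Id2, which encode inhibitors of basic helix-loop-helix factors and are direct BMP targets, were lower at 48 h. Id1 had 2.19 RPKM uninduced, 0.690 at 48 h and 3.31 grown out. Id2 had 5.96, 2.67 and 8.26 in the same order, so the 48 h library was the low one for both. Of 9 genes of that list, 3 were past 1.5-fold lower, the inhibitory Smad gene Smad6 being the third. The receptor gene Bmpr1a had a log2 ratio of 0.16. None of 14 TGF-beta genes was past 1.5-fold.

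Stress, antioxidant and clock genes each held a few lower members, where 3.26% of all genes compared were past 1.5-fold lower. Akr1b8, an aldo-keto reductase gene, had 3.94 RPKM uninduced and 1.57 at 48 h, and Osgin1, an oxidative stress gene, 9.72 and 5.07. They were 2 of 4 genes past 1.5-fold lower among 31 of the Nrf2 list, with a median of -0.30. Of 27 Atf4 and amino acid stress genes, 4 were past 1.5-fold lower, Ddit4 and Atf3 past 2-fold, and 1, Cth, was higher, with a median of -0.17. The core members Atf4 and Asns had log2 ratios of -0.36 and 0.19. The clock repressor genes Bhlhe40, at 5.97 and 2.40 RPKM, and Nr1d1, at 0.949 and 0.526, were 2 of 3 lower among 9, while Cry1 had a log2 ratio of 0.27. Nr1d1 lies inside a model over 3 Mb, with 2627 of 7308 bp counted. Of 24 p53 targets, 4 were lower, with a median of -0.04, and Mdm2 had -0.07.

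The growth machinery of the cell differed little. No member of the ribosomal protein, proteasome, tRNA synthetase, ribosome biogenesis or G2 and mitosis lists was past 1.5-fold in either direction. These lists had 78, 35, 21, 42 and 57 members compared, with medians of 0.06, 0.18, 0.06, 0.09 and -0.07. Proteasome subunits stood highest of all lists, where the interval lay above no change for 24 of 35 and below it for 0. Nuclear-encoded respiratory chain subunits had a median of 0.12, and the interval lay above no change for 33 of 70 and below it for 1. Over all genes compared, it lay above for 30.2% and below for 29.9%. Of these 70 subunit genes, 2 were past 1.5-fold higher, Atp5g1 and Ndufa1. The share higher was 0.416% of all genes compared and 3.05% of those with models under 3 kb. Atp5g1 is such a short model and lies inside a model over 3 Mb, as described below. Scaling by other library factors would shift every log2 ratio by at most 0.0207. Of 51 DNA replication genes, 2 (3.92%) were past 1.5-fold lower, near the 3.26% of all genes compared, and the median was -0.07.

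Replication-dependent histone genes split. Of 29 compared, 7 were past 1.5-fold lower and 1 higher, and the median was 0.02. Hist2h3c1, an H3 gene, had 14 RPKM (1300 reads) uninduced and 5.02 (444 reads) at 48 h, and Hist2h2be, an H2B gene 22947 bp from it, had 1.33 and 0.442. Hist1h4c, an H4 gene of 312 bp, was higher by 2.48-fold (1.02 to 6.73), on 7.67 and 18.1 reads. Hist1h3e, of 411 bp, was lower on 21 and 5 reads, and Hist3h2a had 1.77 and 0.705 RPKM. The neighbour of Hist1h4c, Hist1h2bc, 5658 bp away, was 2.52-fold lower (2.06 to 3.10). Histone genes are near-identical copies between which reads can be split, and the shortest rest on few reads, so these values are uncertain.

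RNA genes gave ratios on both sides. Among 13 snoRNA host and other RNA genes, 4 were past 1.5-fold lower and 1 higher. The host gene Gas5 had 31.4 RPKM uninduced and was 1.57-fold lower (1.5 to 1.64), and Snhg8 had 14.2 and 9.0 RPKM. The nuclear speckle RNA Malat1 had 387 and 339 RPKM, and the paraspeckle RNA Neat1, whose model covers 3177 bp, had 102 and 67.4. Rpph1, the RNA of RNase P, made by RNA polymerase III, was 1.83-fold higher (1.59 to 2.11), from 19.2 to 35.1 RPKM, and stood at 40.6 in the grown-out library.

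Few genes were higher, and of the 33 past 1.5-fold 23 had at least 100 reads at 48 h. Rdm1, a RAD52-related repair gene, had 0.552 RPKM (229 reads) uninduced, 1.36 (535 reads) at 48 h and 0.748 grown out. It was 2.46-fold higher (2.10 to 2.88), the firmest ratio on that side. The other 22 homologous recombination genes had none past 1.5-fold, and the list's median was -0.03. Cth, which encodes cystathionine gamma-lyase of cysteine synthesis, had 0.421, 0.875 and 0.497 RPKM in the 3 libraries, and just missed the 2-fold line at a log2 ratio of 0.98. Rnf130, a ubiquitin ligase gene with 4250 and 6298 reads, was 1.56-fold higher (1.5 to 1.62). The third gene past 2-fold was the clone-named model 2810403D21Rik on chromosome X, at 20.3 and 42.5 reads.

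Some of the higher genes shared a position. Of 33 past 1.5-fold higher, 8 were on chromosome X, which held 289 of the genes compared, and 7 of these 8 lay inside a same-strand model spanning over 3 Mb. Of the X-linked genes inside such models, 4.55% of 154 were higher, against 0.741% of 135 other X-linked genes. Over all chromosomes 11 of the 33 higher genes and 14 of the 259 lower genes lay inside one, and 376 of the 385 compared genes there had a deposited length below their span. Atp5g1, a subunit gene of ATP synthase on chromosome 11, is one, with 868 of 2902 bp counted and 1.94-fold higher (1.55 to 2.43). The part of that short length in these ratios was not tested.

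Short genes made up most of the lower set. Of the 57 genes past 2-fold lower, 47 (82.5%) had a model under 10 kb, as did 2223 (28.0%) of all genes compared. The share past 1.5-fold lower was 8.99% under 3 kb, 5.81% from 3 to 10 kb, 2.20% from 10 to 30 kb, 1.86% from 30 to 100 kb and 1.10% over 100 kb. The share higher went from 3.05% under 3 kb to 0 of 819 genes over 100 kb. Short models also had fewer reads, a median of 158 in uninduced cells under 3 kb against 12768 over 100 kb. Level made less difference: among genes under 10 kb, 6.93% at 0.5 to 2 RPKM, 6.38% at 2 to 10 and 6.95% over 10 RPKM were past 1.5-fold lower. The part of length in the ratios was not tested.

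**Figure D4:**
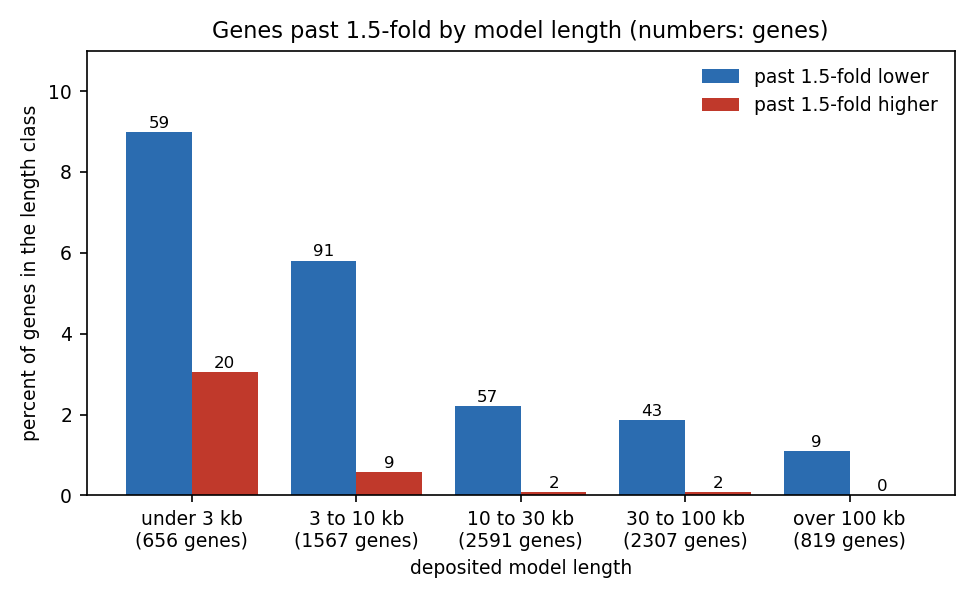
Percent of genes past 1.5-fold lower (blue) and higher (red) at 48 h in 5 classes of deposited model length, with the number of genes above each bar. The lower share goes from 8.99% of 656 genes under 3 kb to 1.10% of 819 genes over 100 kb.

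Genes past 1.5-fold that follow each other along a chromosome, with no other such gene between, gave 15 pairs within 100 kb. Of these pairs, 12 were in the same direction. Since 88.7% of all genes past 1.5-fold were lower, most pairs would share a direction wherever they lie, and nothing about neighbours is read from this. Tmem176b and Tmem176a, membrane protein genes 109 bp apart, had log2 ratios of -0.85 and -0.81. These are pairs chosen for both members being called, and were named after their values were seen. At the edges of the comparison, Slc4a2 and Tcta lay just inside the minimum level with a mean of 0.5001 RPKM, and Gm19757 and Pld1 just outside it at 0.4994 and 0.4993. In length Hist1h4d and Hist1h4k, at 312 bp, were just inside, and Rmrp and Scarna13, at 275 and 273 bp, just outside.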

How the data were processed

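Each of 3 conditions had 1 Bru-seq library; the uninduced and 48 h libraries were compared. Per the submitters' processing notes reads passed through bedtools 2.16.2, CASAVA 1.8.2, TopHat 1.4.1 and Bowtie 0.12.8, and the build is hg19, although the models carry mouse symbols. The build of the coordinates is not given in the sources used here: of 20048 models found by symbol in the GRCm38.p6 table, 313 began within 10 bp of the position there. Estimated counts, as deposited, give reads per whole gene model (53.6% and 54.1% whole within 0.01). The deposited RPKM values were scaled by the authors to model length and library total. A deposited signal column, which the authors scaled to model length alone, was not used.

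Log2 ratios were taken of RPKM plus 0.05. Intervals are from the exact conditional binomial formula for a fold and the exact Poisson formula for a level (scipy 1.17.1), applied also to counts that are not whole. None of the models with a repeated symbol (133) or spanning over 3 Mb (17) met the level and length minimums. Repeated symbols were left out where a minimum was lifted. The steps were tested on simulated data. Alternatives used edgeR 4.0.16 and DESeq2 1.42.0 scaling on rounded counts, other pseudocounts, minimums and overlap filters.

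Genes, 53 gene lists and 6 marker lists were chosen with earlier results of these data known. Named were the 25 firmest genes past 2-fold lower and the rest by name, all past 2-fold higher, the 5 firmest past 1.5-fold higher, up to 6 members of each list, genes nearest the thresholds and some fixed genes. Acaca, Asns, Atf4, Ebp, Etv4, Etv5, Fasn, Mdm2, Nfkb1, Nsdhl, Rela and Srebf2 were added after their values were seen.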

Additional observations from a re-analysis of the deposited data

Results flagged for a closer look

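Models under 300 bp lay outside the comparison, and 2 small RNA models among 221 of them were past 2-fold higher at 48 h. Snord69, a C/D box snoRNA of 59 bp, had a log2 ratio of 1.21 on 10.5 and 23.1 reads, and its ratio was 2.33-fold (1.08 to 5.39). Scarna8, a Cajal body RNA of 118 bp, had a log2 ratio of 1.22 on 8.71 and 19.7 reads, and its ratio was 2.38-fold (1.02 to 6.03). Both intervals come close to no change. On the other side, Scarna2, Snord52 and Snord65 were lower by 2.69-fold, 2.27-fold and 2.14-fold.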

How the results depend on the processing

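No paired analysis was possible because each condition had 1 library, and for the same reason no replicate could be left out. The counts of genes past 2-fold lower, 2-fold higher, 1.5-fold lower and 1.5-fold higher were 57, 3, 259 and 33. A pseudocount of 0.5 gave 24, 0, 127 and 13, and one of 0.01 gave 7 higher past 2-fold. A mean of at least 2 RPKM gave 23, 0, 90 and 9 over 3242 genes, and no minimum RPKM gave 126, 11, 551 and 96 over 16729 genes. A length of at least 3000 bp gave 33 lower and 1 higher past 2-fold and 13 higher past 1.5-fold, and no minimum length gave 5 higher past 2-fold. Without models overlapping another on the same strand 21 were higher past 1.5-fold, and with at least 100 reads 1 was higher past 2-fold. The share lower past 2-fold was 100% with the pseudocount of 0.5 and with 2 RPKM. Sign changes were counted only for lists with a median of at least 0.1 in size in the comparison. By this count, 3 of 668 list medians over the alternative settings changed sign. The Myc, Max and Mxd network, 0.13 in the comparison, was -0.05 with at least 2 RPKM and -0.14 with no minimum. The immune markers, at -0.83 over 2 genes, were 0.00 with no minimum. The 312 named genes were recomputed with other pseudocounts and scalings only, giving 1560 values. Such settings cannot turn round a ratio past 1.5-fold, so direction was not tested. Of these values, 129 fell outside the counting interval of the main comparison. The added alternative without models inside one over 3 Mb, chosen after seeing the data, gave 54, 2, 245 and 22. Fewer genes enter under the stricter minimums; other causes were not tested. The depth limits short genes most: below 100 reads the median interval spans a factor of 1.44 either way.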
